A study of Mus musculus with 2 samples.

Results

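The oocyte linker histone H1foo, replacement variants of the core histones and the histone chaperones of the egg were described in ovulated mouse oocytes. The genes were chosen by symbol, as H1foo, H1f0, H2afx, H2afz, H2afy, H3f3a, H3f3b, Npm2, Npm3 and Hira. Of these 10 genes, 9 matched by Ensembl identifier a row of the deposited table of 36227 genes, and H1f0 was not analysed here. All 9 had counts in both libraries. Positions are those of GENCODE vM21 on GRCm38, while the submitters' notes name mm9. H1foo lies at chr6:115944938-115950236, H2afz at chr3:137864487-137866922, H2afy at chr13:56073619-56136361, Npm2 at chr14:70647302-70659244, Npm3 at chr19:45747734-45749591 and Hira at chr16:18877037-18970309, and the other genes with counts are placed where their sequences are shown.

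Chromatin of the growing oocyte is packed with proteins that differ from those of dividing cells. Most core histone mRNAs are made in S phase from clustered genes and end in a stem-loop instead of a poly(A) tail. Replacement variants are made outside S phase from polyadenylated mRNAs, which the egg stores, and after fertilisation maternal H3.3 and the egg's chaperones take part in rebuilding the sperm chromatin. Nucleoplasmins are acidic proteins that bind histones, and HIRA is the chaperone that deposits H3.3 outside replication.

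Both groups were oocytes at the MII stage (arrested at metaphase of the second meiotic division) from 16-week-old ICR mice, an outbred strain. All mothers were raised in a standard environment and were obese at 12 weeks. For the next 4 weeks the slimming mothers lived in EE (enriched environment) cages and the control mothers, labelled as fed a standard diet, stayed in normal cages. Each group was 9 naturally ovulated oocytes, 3 from each of 3 mice, lysed together and sequenced as 1 library, so differences lack a replicate check, the groups could not be tested, and every value describes these 2 libraries. Pairs of values are given for the slimming library first and for the control library after it.

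The slimming library held 20947962 counts and the control library 20242289. All 12 oocyte markers were at 10 CPM (counts scaled to a library total of 1000000) or more in both libraries, led by the growth factor Gdf9 with 44674 and 45613 CPM. Zp3, a zona pellucida protein, was the 1 marker 2-fold apart, at 2450 and 1172 CPM. Zp1 (549 and 279 CPM) and Zp2 (283 and 158 CPM), also of the zona pellucida, were 1.92-fold and 1.75-fold higher in slimming. Of the 12 oocyte markers, 9 had a positive and 3 a negative log2 ratio. Of 12 cumulus and granulosa markers, 8 were at 0 in slimming and 4 in control, and the list summed to 532 against 529 CPM, mostly from Serpine2 (491 against 475 CPM). Next in this list came Cyp19a1, at 34.5 and 39.2 CPM, and Nr5a2, at 6.49 and 10.1 CPM. Foxl2, Amh, Fshr and Ptx3 were at 0 in both, and Inha, Cyp11a1, Inhba and Tnfaip6 at 0 in slimming only. Immune markers summed to 25.8 against 45.0 CPM, led by H2-Aa (17.9 against 27.2 CPM). Cd68 had 3.77 and 5.09 CPM, and Laptm5 went the other way, at 4.11 and 3.71 CPM. Fcer1g, Tyrobp, Cd52 and Csf1r were at 0 in slimming, and none of the 8 was at 0 in control. Sperm markers summed to 22.2 against 23.7 CPM, mostly from Prm2. Markers of dividing somatic cells summed to 460 against 526 CPM, mostly from Mcm2, which is also in the list of other histone chaperones below. The part of these transcripts in the values below was not tested. In pooled oocytes, fewer cells carrying an mRNA and less of it per cell cannot be told apart.

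H3f3a and H3f3b are a pair of genes whose coding reads can be told apart only by silent changes. Both encode the same histone H3.3, and the first 300 coding bases of each are shown because they carry the differences by which coding reads can be assigned. Both were read from GENCODE vM21 transcripts on GRCm38, H3f3a at chr1:180800832-180813943 and H3f3b at chr11:116021912-116027962, each on the minus strand. Capitals mark the bases at which the sequences differ.
H3f3a: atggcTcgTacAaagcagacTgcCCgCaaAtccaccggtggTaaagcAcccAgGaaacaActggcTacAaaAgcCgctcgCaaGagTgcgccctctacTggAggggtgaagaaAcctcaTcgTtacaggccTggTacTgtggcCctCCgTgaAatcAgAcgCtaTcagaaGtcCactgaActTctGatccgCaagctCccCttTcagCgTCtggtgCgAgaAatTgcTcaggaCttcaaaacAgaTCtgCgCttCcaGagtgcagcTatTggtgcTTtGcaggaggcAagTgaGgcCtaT
H3f3b: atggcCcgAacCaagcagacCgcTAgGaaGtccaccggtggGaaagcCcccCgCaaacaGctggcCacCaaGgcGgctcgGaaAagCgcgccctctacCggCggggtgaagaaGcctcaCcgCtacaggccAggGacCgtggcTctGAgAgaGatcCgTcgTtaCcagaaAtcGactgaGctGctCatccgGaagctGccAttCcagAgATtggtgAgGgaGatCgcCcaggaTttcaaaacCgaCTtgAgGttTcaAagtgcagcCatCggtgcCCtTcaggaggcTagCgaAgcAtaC
Over the whole 411 coding bases, stop codon included, 95 differed, 81 of them at the last base of a codon, and 0 of the 136 residues changed. The bases shown hold 72 of the differences. Identity was 76.9%, and the longest run shared without a difference was 23 bases.

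H2afx, whose protein H2A.X is phosphorylated at DNA breaks, has an mRNA that can end in either of the ways described above. A window of 26 bases from its transcript is shown because the library was primed on poly(A). It was read from bases 542 to 567 of the GENCODE vM21 transcript, whose gene lies at chr9:44334694-44336077 on the plus strand of GRCm38. It starts after the stop codon, and the capitals mark a match to the histone stem-loop motif, searched on the transcript strand only. Of the 16 motif positions, 10 are fixed to the letters shown, and positions 3, 4, 8, 10, 13 and 14 may hold any base.
H2afx: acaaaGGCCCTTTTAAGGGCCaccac
The match began 46 bases after the stop codon and left 822 of the 1384 transcript bases behind it, with a poly(A) signal (ATTAAA) in the last 40. Of the 10 genes, H2afx alone held a match. It was found in 0.621% of 21901 protein-coding genes and in 68.0% of 50 genes of the replication-dependent histone clusters.

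H1foo, the linker histone that takes the place of somatic H1 in the oocyte, stood at 42278 and 44923 CPM. It held 4.23% and 4.49% of all counts. Its rank by CPM was 2 in both libraries, and per kb of transcript it had rank 1 in both, at 44550 and 47337 CPM per kb. Slimming over control gave a log2 ratio of -0.12 (95% counting interval -0.12 to -0.11), 1.09-fold lower, and -0.25 once the trend of the ratio with transcript length was removed. The counting interval covers counting error only.

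The other linker histones were close to absent beside H1foo in these poly(A)-primed libraries. Most of them are Hist1h1 genes, of the clustered kind whose mRNAs end in a stem-loop instead of a poly(A) tail. The part of the priming in their low counts, and in the H1foo share below, was not tested. None of 9 further linker histone genes reached 10 CPM, and 5 had counts. The replication-dependent Hist1h1c had 2.43 and 3.95 CPM, the replication-independent H1fx 0.764 and 1.48 CPM, and Hist1h1a 1.15 and 0.741 CPM. Of the counts of H1foo and these 9 genes, which leave out H1f0, H1foo held 99.988% (exact interval 99.986 to 99.990) and 99.985% (99.982 to 99.988). These intervals overlapped. The genes closest to H1foo in log2 CPM over the 2 libraries were Gdf9, at a distance of 0.08, Tcl1, at 1.71, and Bpgm, at 2.14. Genes without a symbol and those with predicted or clone names were passed over.

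Of the H2A variants, H2afx had 762 and 602 counts (36.4 and 29.7 CPM). It was the higher in slimming by 1.20-fold, at a log2 ratio of 0.26 (0.10 to 0.42). H2afy, which encodes macroH2A1 with its large globular domain, had 454 and 437 counts (21.7 and 21.6 CPM). Its log2 ratio was -0.03 (-0.22 to 0.17), and the sign turned to 0.01 with scaling by total counts. H2afz encodes H2A.Z, a variant found at promoters, and had 10 and 23 counts (0.477 and 1.14 CPM). Its log2 ratio was -1.24 (-2.52 to -0.16), the largest difference among the 9 genes and the one with the fewest counts after Hira. The paralog H2afv, which encodes a second form of H2A.Z, stood at 20.8 and 15.4 CPM with a log2 ratio of 0.40 (0.19 to 0.61). Per kb, H2afv was at 19.3 and 14.3 CPM and H2afz at 0.589 and 1.40 CPM. Of the H2afz transcript, 90.1% is also found in other genes, against 0% for H2afv, and how reads with several matches were treated is not given, so the level of H2afz is uncertain.

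Almost all counts assigned to H3f3a and H3f3b were those of H3f3b. H3f3b had 11066 and 12638 counts (528 and 624 CPM), and was 1.21-fold lower in slimming at a log2 ratio of -0.27 (-0.31 to -0.24). H3f3a had 78 and 56 counts (3.72 and 2.77 CPM), a log2 ratio of 0.39 whose interval, -0.12 to 0.92, included 0. The H3f3b share of H3.3 counts was 99.3% (exact interval 99.1 to 99.4) and 99.6% (99.4 to 99.7). Per kb of the median coding transcript the share was 97.4% and 98.4%. H3f3a had 17 annotated pseudogenes that match its transcript, of which those in the table held between 0 and 6 counts in either library. A stretch of it is also found in Smpd4, a sphingomyelinase gene with 105 and 119 counts. The treatment of reads with several matches is not given in the sources used here, so the level of H3f3a is uncertain.

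Cenpa, the H3 variant of centromeres, was outside the chosen genes and had 535 and 474 CPM, a log2 ratio of 0.14 (0.10 to 0.18). Among the core variants outside the chosen genes it was followed by H2afv, given above, and then by Hist3h2ba, at 1.67 and 1.38 CPM. Replication-dependent core histones were scarce in these poly(A)-primed libraries. Of 44 such genes in the table, 18 had a count and 1 reached 10 CPM. That gene was Hist1h2bc, at 13.2 and 15.1 CPM with a log2 ratio of -0.22 (-0.46 to 0.02). Hist1h4a had 30 and 38 counts and Hist1h4c 30 and 13 counts.

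Npm2, the egg nucleoplasmin, had 6427 and 5435 counts (307 and 268 CPM). It was the higher in slimming by 1.12-fold, at a log2 ratio of 0.16 (0.11 to 0.21), or 0.03 with that length trend removed. Npm3, a small relative found in many cells, had 53 and 95 counts (2.53 and 4.69 CPM) and was 1.89-fold lower, at a log2 ratio of -0.92 (-1.44 to -0.42). The antisense gene Gm15491 lies over Npm3 exons on the opposite strand, and had 584 and 481 counts (27.9 and 23.8 CPM), at a log2 ratio of 0.20 (0.02 to 0.38). Without strand, reads from the stretches where exons of Npm3 and Gm15491 overlap cannot be told apart. Whether strand was used is not given in the sources used here. Summed, they had 637 and 576 counts and a log2 ratio of 0.06 (-0.10 to 0.23). That sum, chosen after the values were seen, is mostly Gm15491 and gives no direction for Npm3, whose ratio is uncertain.

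Npm1, the nucleolar nucleophosmin, had 61.1 and 58.5 CPM and a log2 ratio of 0.03 (-0.08 to 0.15). Of the counts of Npm1, Npm2 and Npm3, Npm2 held 82.8% (82.0 to 83.7) and 81.0% (80.0 to 81.9), or 84.9% and 83.0% per kb. The counting intervals of the shares of counts did not overlap. Of the Npm1 transcript, 53.8% is also found in 5 other genes, so these shares are uncertain. Exons of Npm2 also overlap those of Xpo7 on the same strand, and Xpo7 had 479 and 646 counts.

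Hira was close to the floor of detection. It had 8 and 12 counts (0.382 and 0.593 CPM), and its log2 ratio of -0.64 had an interval, -2.16 to 0.75, that included 0. A count of 0 would allow up to 3 counts, or 0.143 and 0.148 CPM. Of the Hira transcript, 66.0% is also found in Gm28539, which overlaps it on the same strand. Gm28539 is not among the 36227 genes, so no counts were assigned to it. The part of this overlap in the counts of Hira was not tested, and with so few counts the level of Hira is uncertain. Further subunits of the HIRA complex and other H3.3 chaperones were named for that role after their values were seen, and all had higher levels per kb. Cabin1 had 298 and 309 CPM per kb, Ubn1 51.5 and 68.8 and its paralog Ubn2 58.1 and 54.7, against 0.122 and 0.189 CPM per kb for Hira. The gap between Cabin1 and Ubn1 depends on the median transcript lengths used, 1344 and 5972.5 bases, as Cabin1 had 400 and 415 CPM. Asf1a, which hands H3 and H4 to HIRA, had 105 and 92.4 CPM per kb, with 68.8% of its transcript found in another gene. Ubn1 was 1.36-fold lower in the slimming library, at 308 against 411 CPM (log2 -0.45, -0.50 to -0.40). Ubn2 had a log2 ratio of 0.06 (0.00 to 0.11), Cabin1 one of -0.08 (-0.13 to -0.04) and Asf1a one of 0.15 (0.06 to 0.24). Daxx and Atrx, the chaperone pair that places H3.3 at repeats, had log2 ratios of -0.47 (-0.58 to -0.35) and -0.25 (-0.33 to -0.16).

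**Figure D1:**
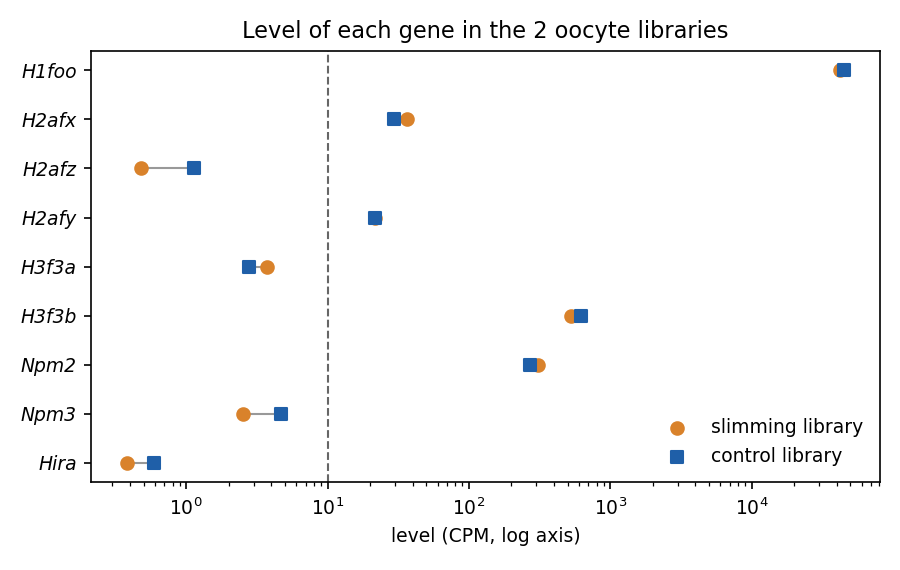
The level of each of the 9 genes in CPM on a log axis, with circles for the slimming and squares for the control library and a dashed line at 10 CPM. H1foo stands at 42278 and 44923 CPM, and H2afz, H3f3a, Npm3 and Hira lie below 10 CPM.

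Per kb of the median coding transcript, H1foo led in both libraries, H2afx and H2afy were at order 4 and 5, and H2afz and Hira closed the order. The places of H3f3b and Npm2, and of H3f3a and Npm3, depended on the library and on the transcript length used. H3f3b had 277 CPM per kb (exact Poisson counting interval 272 to 282) and Npm2 269 (262 to 277) in the control library, where the intervals overlapped. In the slimming library Npm2 had 308 (300.3 to 315) and H3f3b 234 (230.1 to 239), where they did not. With the longest coding transcript, H3f3b had 210 and 248 CPM per kb and lay below Npm2, at 308 and 269, in both libraries. In the control library Npm3 had 5.29 CPM per kb (4.28 to 6.46) and H3f3a 4.59 (3.47 to 5.96), which overlapped, and in the slimming library H3f3a had 6.18 (4.89 to 7.71) and Npm3 2.85 (2.13 to 3.73). With the longest coding transcript, H3f3a stood at 1.31 and 0.974 CPM per kb. That was below Npm3 in both libraries and, in the control library, also below H2afz, at 1.06 (0.447 in the slimming library).

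None of the 5 genes at 10 CPM or more in at least 1 library (H1foo, H2afx, H2afy, H3f3b and Npm2) was 2-fold apart between the libraries. Over all 5714 genes at that level, 2.73% were higher and 1.94% lower in slimming by 2-fold or more. None was 1.5-fold apart either, where 10.3% of all genes were higher and 7.16% lower by that much. The median log2 ratio of the 5 was -0.03, beside 0.02 over the 5714 genes. Of the 5, 2 had a positive and 3 a negative log2 ratio, beside 2937 and 2777 of the 5714 genes. Of all 9, 3 had a positive and 6 a negative log2 ratio, and for 6 the counting interval excluded 0. The share of all genes whose interval excluded 0 was not counted, so nothing particular to the 9 is read from this. Among genes with 1 count or more, 20.9% were lower and 17.7% higher by 2-fold or more, and H2afz was the 1 of the 9 past that limit, on the lower side. Among genes at 1 CPM or more the shares were 8.96% lower and 9.43% higher, and H2afz was again the 1 gene past it, of 8.

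The log2 ratio of each of the 9 genes lay inside the range between the 5th and the 95th percentile of genes of like level. For H1foo that range was -0.51 to 0.38 over 136 genes at 1000 CPM or more. For H3f3b it was -0.47 to 0.46 over 453 genes between 300 and 1000 CPM, and for Npm2 -0.52 to 0.61 over 947 genes. Between 0.3 and 1 CPM, where H2afz and Hira lie, it was -5.03 to 4.10. The counting intervals of H1foo, H3f3b and Npm2 were narrower than these ranges.

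**Figure D2:**
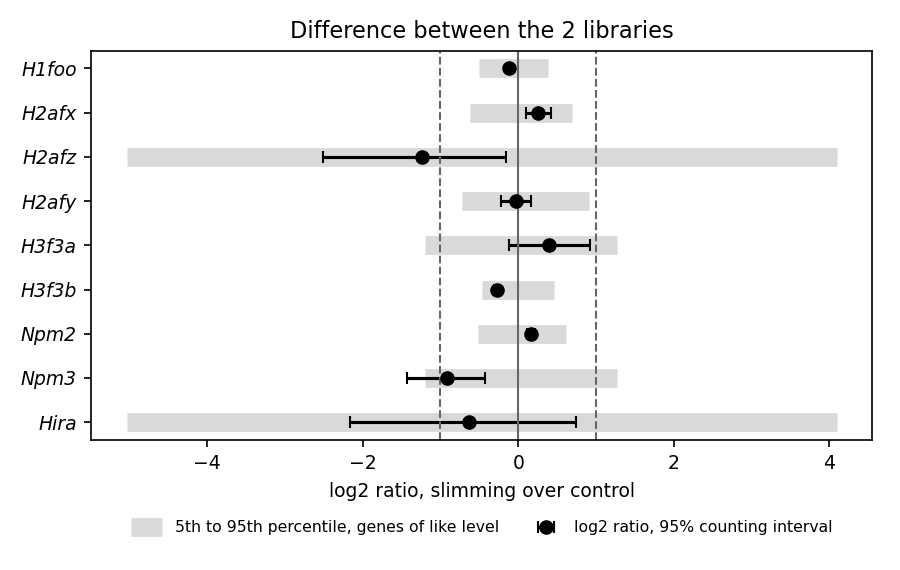
The log2 ratio of slimming over control for each of the 9 genes (points) with its 95% counting interval (lines), over the range between the 5th and the 95th percentile of all genes of like mean level (grey). All 9 points lie in the grey range, and the dashed lines mark 2-fold.

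The 4 genes below 10 CPM held more sequence found in other annotated genes than the 5 above, but of unlike kinds. At 95% identity over at least 50 bases, between 32.5% and 90.1% of their longest coding transcript was found in another annotated gene, against 0% to 21.8% for the 5 genes above. H2afz had the highest share, 90.1%, over 4 other genes that include 2 pseudogenes and Tmcc1, which had 1631 and 2079 counts. For Hira it was 66.0%, all in Gm28539, which overlaps it on the same strand and is not among the 36227 genes. For Npm3 it was 63.4%, in the antisense gene Gm15491 over its own exons and in 1 pseudogene. For H3f3a it was 32.5% of 2841 bases, over 19 other genes that include 17 pseudogenes. The median coding transcript of H3f3a has 602.5 bases, and the share for that length was not computed. H1foo and Npm2 had no such match. Of the other chaperones, remodellers and mRNA processing genes, 8 of 49 at 10 CPM or more and 4 of 22 below it had a share of at least 30%. That limit lies between the highest share of the 5 genes and the lowest of the 4. The part of shared sequence in the low counts was not tested.

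**Figure D3:**
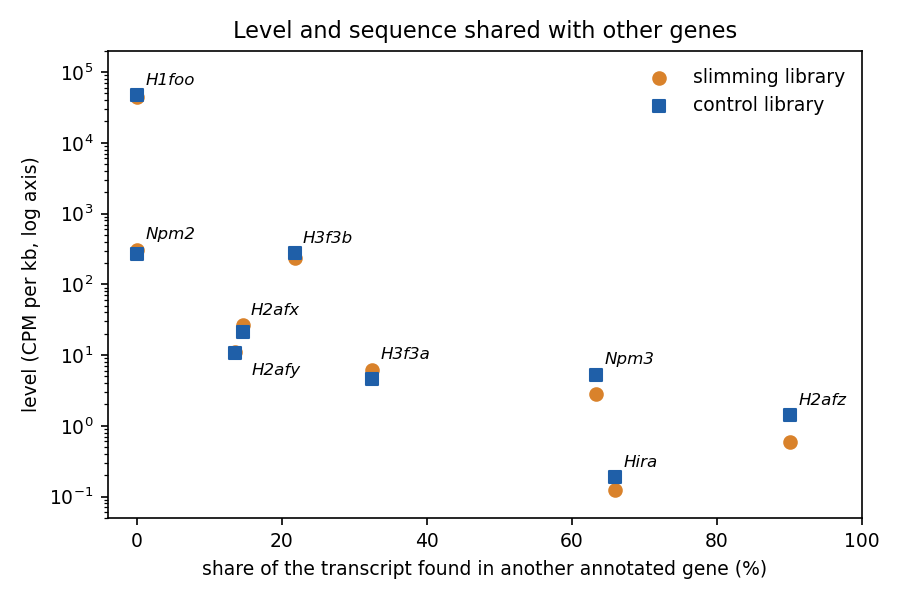
The level in CPM per kb (log axis) against the share of the longest coding transcript found in another annotated gene. Levels are per kb of the median coding transcript, for the 9 genes in the slimming (circles) and control (squares) libraries. H1foo and Npm2 stand at 0% and H2afz at 90.1%.

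Among 40 other histone chaperones in the table, 29 were at 10 CPM or more, and 0 of these were 2-fold apart. Their median log2 ratio was -0.16, with 10 above and 19 below 0, beside a median of 0.02 and 2937 above and 2777 below over all 5714 genes. Asf1b, an H3 and H4 chaperone, had 852 and 664 CPM (log2 0.33, 0.29 to 0.36). Nap1l4 had 634 and 658 CPM and Rbbp7, which binds histone H4, 637 and 634 CPM, at log2 ratios of -0.08 and -0.02. Of the Rbbp7 transcript, 49.7% is also found in 2 other genes. The ends of the list were Nasp, a linker and H3 chaperone, at 0.36 (0.29 to 0.43), and Nucks1 at -0.68 (-0.88 to -0.48).

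Of 19 genes of remodellers that exchange variants, 10 were at 10 CPM or more and 0 of these were 2-fold apart. Ep400 had 405 and 472 CPM, Yeats4 189 and 198 CPM and Vps72, an H2A.Z chaperone, 148 and 193 CPM, with log2 ratios of -0.25, -0.09 and -0.42. Ruvbl1, an ATPase of these complexes, was highest at 0.72 (0.44 to 1.00), with 81.7% of its transcript found in another gene, and Ino80 lowest at -0.45 (-0.66 to -0.24). The list's median was -0.10.

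In the list of histone mRNA processing, 1 of 10 genes at 10 CPM or more was 2-fold higher and 0 were lower. Lsm10, a subunit of the U7 snRNP that cuts histone mRNA after the stem-loop, had 1737 and 625 counts (82.9 and 30.9 CPM), 2.63-fold higher in slimming (log2 1.39, 1.26 to 1.53). Slbp, which binds the stem-loop, had 377 and 302 CPM (log2 0.29, 0.24 to 0.34), with 60.2% of its transcript found in other genes, and Cpsf2 65.9 and 68.6 CPM (log2 -0.09, -0.20 to 0.02). Npat, which activates histone genes, was lowest at -0.47 (-0.78 to -0.16). The list's median was 0.17.

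**Figure D4:**
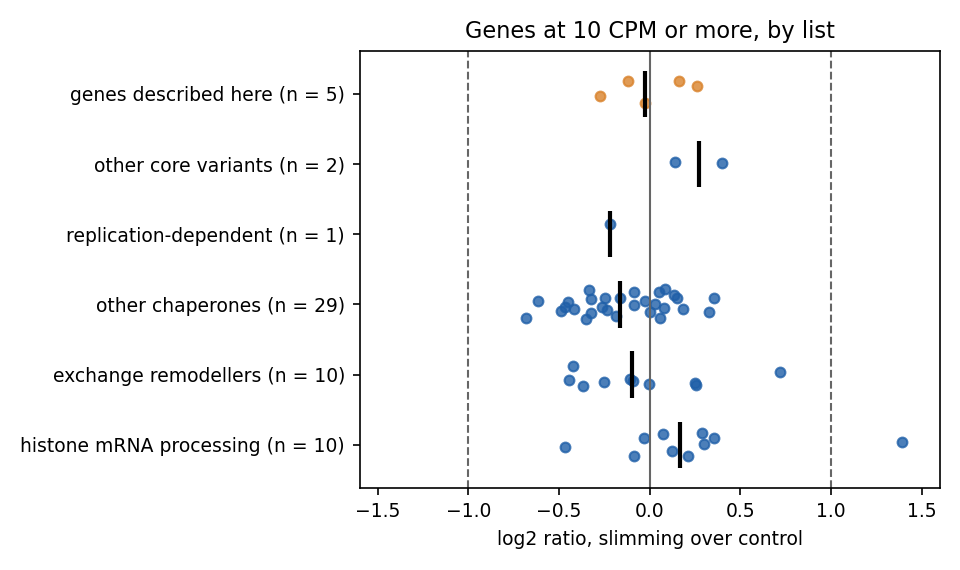
The log2 ratio of slimming over control for each gene at 10 CPM or more (points), in the genes described here (5) and in 5 related lists, with the median as a bar and dashed lines at 2-fold. Lsm10, at 1.39, is the point past 2-fold, and no linker histone other than H1foo reached 10 CPM.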

How the data were processed

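Messenger RNA of 9 oocytes per group was primed with an oligo(dT) stretch of 24 bases and amplified for 18 and then 14 PCR cycles, per the labels' protocols. The submitters' processing notes name build mm9. Not given in the sources used here were the aligner, the counting program and whether strand was used. Values are the authors' raw counts of reads for each gene, per the file headers, and 18210 of 36227 genes with missing entries were read as no count. A log2 ratio scaled by the authors, a score (z) made by the authors and a p-value from the authors, which compare the reads of the 2 libraries, are in the deposited table. Of these, only the scaled log2 ratio was used, as an alternative.

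GENCODE vM21 (GRCm38) gave symbols through Ensembl identifiers, for 16913 of 18017 genes with counts. Its transcripts gave lengths, overlaps and sequences. Libraries were scaled with TMM factors (1.01 slimming, 0.989 control; edgeR 4.0.16, R 4.3.3). Log2 ratios were computed after adding 0.5, with exact Clopper-Pearson intervals. PCR copies are not independent molecules, so intervals and floors cover counting error only. Shared sequence was searched with BLAST+ 2.17.0. On counts simulated with counting error only and scaled by totals, 200 of 5398 genes at 10 CPM or more were changed 4-fold. Of these 200, 100% passed the 2-fold limit. This checks the computation, and as it holds no PCR or pool variation it cannot show how reliable the differences here are.

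The genes and lists were chosen with earlier results of these data known. All 10 genes were always named. From each related list the 3 most abundant genes, those 2-fold apart and the highest and lowest ratios were to be named, and from marker lists the 3 most abundant and those at 0. Marker lists are given here by their sums, leading genes and, for cumulus, granulosa and immune cells, genes at 0. Zp1, Zp2, Zp3, the H3.3 chaperones Daxx, Atrx, Asf1a, Cabin1, Ubn1 and Ubn2, and Npm1 were chosen after their values were seen. Scaling, added count, minimum level, fold, length trend and transcript length were varied. Other tools were Python 3.11.15, numpy 2.4.6, scipy 1.17.1, pandas 2.3.3, Biopython 1.88, DESeq2 1.42.0 and matplotlib 3.10.9.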

Additional observations from a re-analysis of the deposited data

How the results depend on the processing

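No paired analysis was possible because each group was 1 library. Under every scaling, with an added count of 1 and with the length trend removed, 0 of the 5 genes at 10 CPM or more were 2-fold apart. Over these settings the median of their log2 ratios lay between -0.07 (upper-quartile factors) and 0.01 (total counts, and the authors' scaling). It was 0.02 over 4 genes at 30 CPM, -0.07 over 8 at 1 CPM and -0.12 over all 9. With a minimum of 1 CPM, or of 1 count, 1 of the genes (H2afz) was 2-fold lower. The related lists together had 1 gene 2-fold higher and 0 lower of 52, against 3 and 4 of 76 at a minimum of 1 CPM (9.43% and 8.96% over all genes), 9 and 19 of 102 at 1 count (17.7% and 20.9%) and 2 and 2 of 52 at 1.5-fold (10.3% and 7.16%). The lower minimum adds genes of few counts, and the cause was not tested. The log2 ratio of Npm3, -0.92, became 0.064 (-0.10 to 0.23) when its counts were summed with those of Gm15491, an alternative chosen after seeing the data. Gm15491 holds 584 of the 637 and 481 of the 576 counts, so the sign of the sum follows it and gives no direction for Npm3. Removing the length trend moved H1foo to -0.25 and Npm2 to 0.03. The H3f3b share of H3.3 counts was 97.4% (slimming) and 98.4% (control) per kb, and 98.3% and 98.5% with the counts of genes matching either transcript added, Smpd4 included. Per kb, the H1foo share was 99.991% and 99.990%, and the Npm2 share 84.9% and 83.0%. With longest transcripts, the control level per kb went from 4.59 to 0.974 for H3f3a, from 1.40 to 1.06 for H2afz, from 0.189 to 0.141 for Hira, from 47337 to 40038 for H1foo and from 277 to 248 for H3f3b. At this depth, differences of H2afz, Npm3, H3f3a and Hira rest on at most 95 counts in a library.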
